A study of Mus musculus with 53 samples.

Results

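The genes of cholinergic transmission were examined in the brains of SCA3 and wild-type mice. They were 10 genes chosen by symbol for their role in making, taking up, breaking down or sensing acetylcholine, and rows for 10 of the 10 were found among the 12372 genes of the count table: Chat, Slc5a7, Ache, Bche, Chrm1, Chrm2, Chrm3, Chrm4, Chrna4 and Chrnb2. Their levels were compared between regions in wild-type mice, and between SCA3 and wild-type mice in each region. SCA3 mice were of the MJD84.2 line, hemizygous for a transgene that holds human ATXN3 in full, its CAG repeat expanded, and is expressed throughout the body. They kept their own mouse Atxn3, and both genotypes were male, on a C57BL/6 background and 74 to 77 weeks old. There were 8 wild-type and 6 SCA3 mice for brainstem, 7 and 6 for cerebellum, 7 and 6 for cortex, and 8 and 5 for striatum, with 1 library per mouse and region.

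Acetylcholine is made by choline acetyltransferase (Chat) in a small set of neurons: interneurons of the striatum, projection neurons of the basal forebrain, and motor and pontine cell groups of the brainstem. Choline is carried back into their terminals by the high-affinity choline transporter (Slc5a7), and the released transmitter is split by acetylcholinesterase (Ache) and, with broader substrates, by butyrylcholinesterase (Bche). Its receptors are the muscarinic G protein coupled receptors (Chrm1 to Chrm4 here) and the nicotinic ion channels, of which the combination of the Chrna4 and Chrnb2 subunits is the main high-affinity form in brain. In whole tissue, fewer cells of a type and less RNA per cell cannot be told apart.

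The 53 libraries held 31.7 M to 76.7 M counts (M, 1000000 counts), with RNA integrity numbers (RIN) of 5.7 to 9. The labelled regions were checked against marker genes, with counts scaled to 1000000 per library (CPM) and summed over a list. Striatal projection neuron markers (12 of 14 measured) summed to 2751 CPM or more in striatum and to 688 CPM or less in brainstem and cerebellum, but cortex, at 938 to 4927 CPM, overlapped striatum. Cortical neuron markers (6 of 9) summed to 514 to 2129 CPM in cortex and overlapped striatum (117 to 843 CPM) and cerebellum (439 to 725 CPM), and cerebellar neuron markers (4 of 8) to 3225 CPM or more in cerebellum and 228 CPM or less elsewhere. Of 8 brainstem markers 0 were in the table, so that label could not be checked. Dissections differed within a region. The thalamic markers (10 of 11 measured) summed to 2637 and 1602 CPM in the striatal libraries of wild-type mice 7267059 and 7267058 and to between 173 and 494 CPM in the other striatal libraries. Values without the libraries of mice 7267059 and 7267058 are given for many of the results on which those libraries bear, not for all.

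The promoters of Chat, Slc5a7 and Chrnb2 are shown because the first pair moved together from library to library and the third passed the test in striatum. Each is the 250 bases before the annotated start in RefSeq (GRCm38.p6), on the gene's own strand, and 9 of the 10 genes had an entry (not Chrm1). Capitals mark letters found on either strand out of GGGCGG (the GC box, in 32.7% of 32851 promoters of this length), TGACG (the core of the cAMP response element, 17.8%), TATAAA (12.4%) and CAGCTG (an E-box, 13.0%). The first is chr14:32465910-32466159, the second chr17:54299035-54299284 and the third chr3:89764633-89764882, and the 3 lie on the minus strand.
Chat: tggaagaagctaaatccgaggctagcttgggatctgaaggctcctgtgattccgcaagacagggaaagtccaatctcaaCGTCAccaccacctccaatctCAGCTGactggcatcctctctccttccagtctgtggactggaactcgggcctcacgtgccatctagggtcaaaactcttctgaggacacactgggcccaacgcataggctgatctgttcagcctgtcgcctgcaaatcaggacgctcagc
Slc5a7: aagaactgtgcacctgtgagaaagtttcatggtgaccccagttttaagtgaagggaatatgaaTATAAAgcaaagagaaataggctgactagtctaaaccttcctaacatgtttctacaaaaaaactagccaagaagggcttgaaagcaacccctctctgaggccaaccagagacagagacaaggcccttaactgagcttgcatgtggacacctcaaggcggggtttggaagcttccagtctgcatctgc
Chrnb2: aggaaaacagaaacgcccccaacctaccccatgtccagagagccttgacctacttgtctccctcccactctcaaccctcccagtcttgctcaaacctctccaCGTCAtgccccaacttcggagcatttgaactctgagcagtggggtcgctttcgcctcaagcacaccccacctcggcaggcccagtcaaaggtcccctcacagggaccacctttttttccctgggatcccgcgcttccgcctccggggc

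Chat held TGACG 167 bases and CAGCTG 145 bases before its start, Slc5a7 held TATAAA 182 bases before its start, and Chrnb2 held TGACG 144 bases before its start. The promoters of Chat and Slc5a7 shared none of these letters. GC content was 54.8% in Chat, 45.6% in Slc5a7 and 59.6% in Chrnb2, against a median of 52.4% over all promoters. It was highest in Chrna4 (74.4%), Ache (73.6%) and Chrm4 (70.0%), which held GGGCGG 3, 4 and 3 times, and lowest in Bche (35.6%), which held it 2 times. The full response element TGACGTCA, in 1.55% of promoters, was in none of the 9. These matches are letters in the window and say nothing of use.

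Chat and Slc5a7, the genes that mark a cholinergic neuron, were lowest in cerebellum of wild-type mice, and brainstem, cortex and striatum did not differ from each other beyond their spread. Chat (chr14:32408203-32465989) ran from 16.5 to 35.4 CPM in wild-type striatum, with a median of 23.5 CPM (n = 8), and from 1.97 to 32.6 CPM in brainstem, with a median of 10.8 CPM (n = 8). In cortex it ran from 1.24 to 23.8 CPM, with a median of 11.5 CPM (n = 7), and in cerebellum from 0 to 4.67 CPM, with a median of 0.437 CPM (n = 7). Cerebellum thus lay below every striatal library, while the other regions overlapped one another widely. Brainstem exceeded cerebellum by 3.46 on the log2 scale (SE 0.78, false discovery rate (FDR) 0.00014, with values below 0.05 taken as passing), and the log2 differences of cerebellum from cortex and from striatum were -3.40 (SE 0.80, FDR 0.00022) and -4.39 (SE 0.78, FDR 3.7e-06), whereas the comparisons among those 3 regions did not pass (FDR 0.277 to 0.948). In cerebellum, 3 libraries had no Chat count, which allows up to 0.0766, 0.0554 and 0.0555 CPM (3 counts each, counting error only).

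Slc5a7 (chr17:54273590-54299034) had the same division. Its wild-type medians were 42.2 CPM in brainstem (8.41 to 126, n = 8), 48.5 CPM in striatum (31.9 to 68.2, n = 8), 22.02 CPM in cortex (3.32 to 49.2, n = 7) and 2.18 CPM in cerebellum (0.111 to 17.4, n = 7). Brainstem held both the highest library and libraries below every striatal library. Brainstem exceeded cerebellum by 3.59 on the log2 scale (FDR 1.9e-05), and cerebellum differed from cortex by -2.47 (FDR 0.0028) and from striatum by -3.43 (FDR 4.4e-05), and the other comparisons had FDRs of 0.164 to 0.844.

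**Figure D1:**
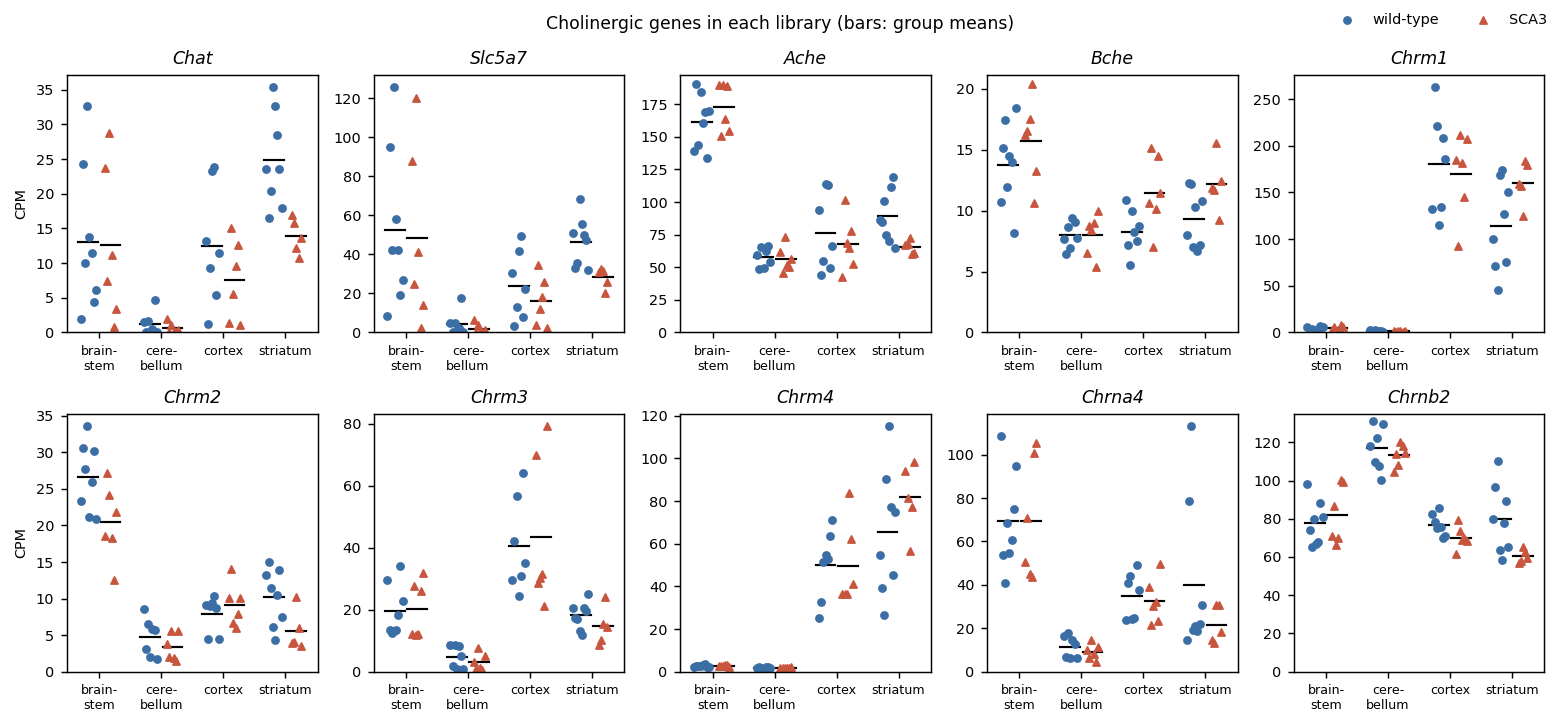
CPM (linear axis from 0) of the 10 genes in each library, by region, with circles for wild-type, triangles for SCA3 and a bar at each group mean. In striatum 4 of 5 SCA3 libraries lie below every wild-type library for Chat and for Slc5a7, and in brainstem both genotypes spread widely for these genes.

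Chat and Slc5a7 were high or low together between libraries of a group. Over the 53 libraries, deviations of Chat from its 8 group means on the log2 CPM scale had a Pearson's r of 0.988 with those of Slc5a7, the highest of all genes. This is a description, since both values come from the same libraries. The next genes were Entpd3 (0.883), Slc35d3 (0.835), Meis2 (0.824) and Rerg (0.808). In the 13 striatal libraries alone the 5 highest were Bcs1l (0.931), Lmf1 (0.929), Kazn (0.927), Nfatc2 (0.915) and Hbegf (0.909), and Slc5a7 came 7th (0.900). Among the other members the values over all libraries lay between -0.412 (Chrnb2) and 0.584 (Ache).

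The proportion of Chat to Slc5a7 differed between brainstem and striatum. Per length of exon, Chat over Slc5a7 was 0.293 ± 0.0195 in wild-type brainstem (SD, n = 8, range 0.271 to 0.326) and 0.642 ± 0.0551 in wild-type striatum (n = 8, range 0.556 to 0.707). These ranges did not overlap, although the genes' own levels did. Wild-type cortex (0.648 ± 0.153, n = 7, range 0.447 to 0.850) overlapped striatum. Wild-type cerebellum (0.205 ± 0.168, n = 7, range 0 to 0.400) overlapped brainstem. In SCA3 mice the ratio was 0.336 ± 0.053 (n = 6) in brainstem and 0.594 ± 0.0787 (n = 5) in striatum, so the SCA3 values overlapped the wild-type values within a region.

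**Figure D2:**
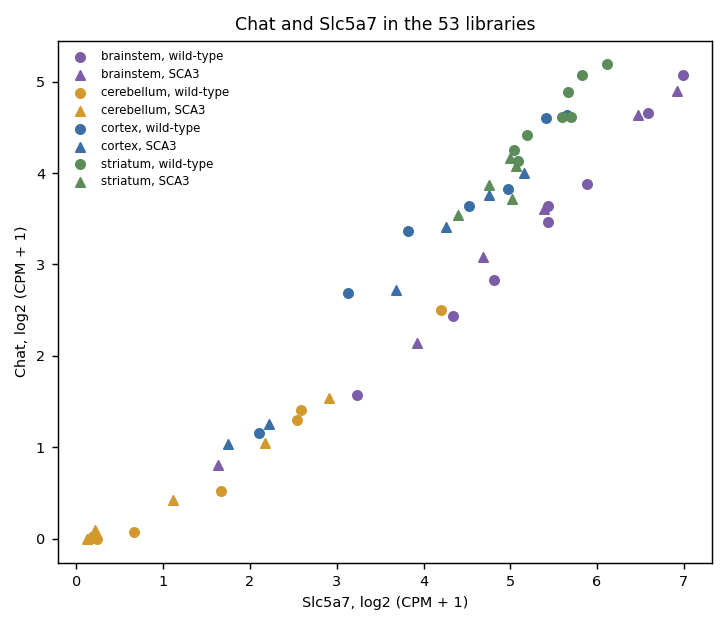
Chat against Slc5a7 in the 53 libraries, each as log2 of CPM plus 1, coloured by region, with circles for wild-type and triangles for SCA3. Brainstem libraries lie on a lower line than striatal and cortical libraries, and SCA3 libraries follow the line of their region.

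The lowest Chat values in brainstem and cortex came from libraries at an end of a marker sum. The 4 brainstem libraries with the highest thalamic sums (841 to 1026 CPM, from wild-type mice 7267055 and 9083373 and SCA3 mice 9083514 and 9083515) had the 4 lowest Chat values, at 0.75 to 4.42 CPM, and the 4 lowest Slc5a7 values, at 2.11 to 19.2 CPM. They also had the 4 highest values of Chrm1 (5.90 to 7.99 CPM) and of Chrnb2 (88.2 CPM or more). Each genotype gave 2 of these libraries. Beyond the 4 the order did not hold in brainstem. Wild-type mouse 9083375, with a sum of 548 CPM, had 6.12 CPM of Chat, and wild-type mouse 7267059, with 742 CPM, had 10.04 CPM. In cortex, the 3 libraries with the lowest projection neuron sums (938 to 1460 CPM, wild-type mouse 7267058 and SCA3 mice 9083515 and 7267054) had the 3 lowest Chat values, at 1.06 to 1.38 CPM, while the remaining 10 had 5.45 CPM or more. Beyond these 3 the order did not hold: the next lowest sum (1560 CPM) went with 13.1 CPM of Chat and the highest (4927 CPM) with 9.61 CPM. The part of the dissection in these levels was not tested.

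Of the enzymes that end the signal, Ache (chr5:137287519-137294466) was highest in brainstem. Wild-type brainstem held 134 to 190 CPM (median 165, n = 8), striatum 64.6 to 119 CPM (median 85.2, n = 8), cortex 44.2 to 114 CPM (median 66.2, n = 7) and cerebellum 48.4 to 66.6 CPM (median 59.0, n = 7). Brainstem did not overlap any other region. It exceeded striatum by 0.86 (SE 0.16, FDR 1.8e-07), cortex by 1.08 (SE 0.16, FDR 2.8e-10) and cerebellum by 1.48 (SE 0.16, FDR 4.4e-18) on the log2 scale. Bche (chr3:73635808-73708415) was also highest in brainstem, at 13.8 ± 3.43 CPM (SD, n = 8), against 7.99 ± 1.09 CPM in cerebellum, 8.28 ± 1.78 CPM in cortex and 9.31 ± 2.33 CPM in striatum. It exceeded them by 0.78, 0.73 and 0.57 (FDR 1.1e-05, 5.3e-05 and 0.0013), and those 3 regions did not pass against each other (FDR 0.247 to 0.807). Per length of exon, Ache was 10.6 (cerebellum) to 17.9 (brainstem) times as abundant as Bche on average in wild-type mice.

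The muscarinic receptors divided by region. Chrm1 (chr19:8663789-8683587), which couples to phospholipase C, held 115 to 263 CPM in wild-type cortex (median 186, n = 7) and 45.6 to 174 CPM in striatum (median 113, n = 8), but only 1.96 to 7.19 CPM in brainstem and 0.591 to 2.81 CPM in cerebellum. Cortex and striatum overlapped, and neither overlapped the hindbrain regions: the log2 difference of brainstem from cortex was -5.51 (SE 0.33, FDR 1.3e-44), and that of cortex from striatum was 0.66 (SE 0.32, FDR 0.0987), or 0.44 (FDR 0.323) without the 2 thalamic libraries. Chrm4 (chr2:91927249-91928688), which lowers cAMP and is carried by striatal projection neurons, had the same 2 levels, with 26.5 to 115 CPM in striatum (median 64.7, n = 8) and 25.2 to 71.2 CPM in cortex (median 52.8, n = 7), and 3.53 CPM or less in brainstem and cerebellum. Brainstem was below striatum by a log2 difference of -4.62 (SE 0.21, FDR 2.4e-80). Cortex did not differ from striatum with all libraries (-0.38, FDR 0.152), and was lower by a log2 difference of -0.60 (FDR 0.0105) without the 2 thalamic libraries.

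Chrm2 and Chrm3 were arranged differently. Chrm2 (chr6:36388084-36528414), the receptor by which cholinergic terminals restrain their own release, was highest in wild-type brainstem, with 20.9 to 33.7 CPM (median 26.8, n = 8), and did not overlap striatum (4.39 to 14.99 CPM), cortex (4.45 to 10.4 CPM) or cerebellum (1.75 to 8.56 CPM). Brainstem exceeded these by 1.38, 1.75 and 2.48 on the log2 scale (FDR 5.1e-06, 3.6e-08 and 1.3e-14). Chrm3 (chr13:9875486-10360847) was highest in cortex, at 24.5 to 64.1 CPM (median 35.1, n = 7), followed by brainstem (12.3 to 34.1 CPM, median 16.0) and striatum (11.7 to 25.2 CPM, median 18.5), which did not differ beyond their spread (FDR 0.817), and it was 0.739 to 8.65 CPM in cerebellum. The log2 difference of brainstem from cortex was -1.04 (SE 0.42, FDR 0.022). Cortex exceeded striatum by 1.16 (SE 0.42, FDR 0.0217), a call lost with RIN as a covariate and without wild-type mouse 7267058, 9082857 or 9083373. The gene model of Chrm4 in GENCODE holds only its coding exon of 1440 bases, so its level per length is not set beside those of the other receptors. As CPM per kilobase of exon, Chrm1 had 27.7 ± 8.45 in wild-type cortex (SD, n = 7), Chrm3 6.48 ± 2.37 and Chrm2 1.31 ± 0.401, while in brainstem Chrm2 had 4.41 ± 0.775 (n = 8), Chrm3 3.15 ± 1.34 and Chrm1 0.606 ± 0.305.

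Of the nicotinic subunits, Chrna4 (chr2:181018380-181043546) ran from 40.8 to 108 CPM in wild-type brainstem (median 64.7, n = 8), from 23.9 to 49.1 CPM in cortex (median 37.7, n = 7) and from 6.39 to 17.9 CPM in cerebellum (median 12.7, n = 7). In striatum 6 wild-type libraries held 14.8 to 30.8 CPM, and the 2 high in thalamic markers held 78.8 and 113 CPM. With all libraries the cortical level did not differ from the striatal (log2 difference -0.19, SE 0.33, FDR 0.696), and without those 2 libraries cortex was higher by 0.73 (FDR 0.033). Chrnb2 (chr3:89746195-89764632) was the only member highest in cerebellum, at 117 ± 11.7 CPM (SD, n = 7, range 100.2 to 131), against 76.9 ± 5.86 CPM in cortex (n = 7), 77.6 ± 11.4 CPM in brainstem (n = 8) and 80.1 ± 17.8 CPM in striatum (n = 8). Cerebellum exceeded them by 0.61, 0.59 and 0.55 (FDR 2.2e-08, 1.2e-08 and 1.6e-07). The ratio of Chrna4 to Chrnb2 per length was therefore 1.47 ± 0.303 in brainstem and 0.171 ± 0.0824 in cerebellum. Chrnb2 shares 1365 bases of exon with Adar, on the opposite strand, and reads were counted without strand, so its count is uncertain.

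Counted over the 10 genes, 10 passed between wild-type brainstem and cerebellum (9 higher in brainstem), where 72.6% of all genes passed. The numbers were 7 between brainstem and cortex (65.4% of all genes), 6 between brainstem and striatum (64.2%), 9 between cerebellum and cortex (69.7%), 9 between cerebellum and striatum (69.5%) and 1 between cortex and striatum (34.4%). Most genes of the table passed in each comparison but that of cortex and striatum. The count of 1 between cortex and striatum was 3 (Chrm3, Chrm4 and Chrna4) without the 2 thalamic libraries, and 0 to 2 when a mouse was left out.

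To ask whether cholinergic genes differ between genotypes, each region's SCA3 libraries were set against its wild-type libraries, with all 53 libraries in the fit. In brainstem 0 of 10 passed (1.92% of all genes did), in cerebellum 0 (0.0647%), in cortex 0 (0.154%) and in striatum 1 (7.54%). At an unadjusted p below 0.05 there were 0, 0, 1 and 5 members, against 1640, 205, 503 and 2874 of the 12372 genes. The counts of 0 were also obtained with edgeR's quasi-likelihood F test, DESeq2 and limma-voom. In the test of region dependence 0 passed (0.218% of all genes), as in the combined test of the 4 regions (4.73%). At an unadjusted p below 0.05 these tests had 1 and 3 members, against 1125 and 2051 of the 12372 genes. The members' median log2 fold change was 0.031 in brainstem, -0.35 in cerebellum, -0.088 in cortex and -0.42 in striatum, against 0.0028, -0.0043, -0.0024 and -0.0031 over all genes. The genotypes overlapped for every member in every region, whereas they did not for 1.38%, 0.234%, 0.251% and 0.655% of all genes in brainstem, cerebellum, cortex and striatum.

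In striatum the cholinergic neuron genes lay lower in most SCA3 libraries. Chat had 10.7, 12.1, 13.6, 15.9 and 16.9 CPM in the 5 SCA3 libraries, and 16.5 to 35.4 CPM in the 8 wild-type libraries (median 23.5). Of these, 4 SCA3 libraries lay below every wild-type library and 7 wild-type libraries above every SCA3 library. The means were 13.8 ± 2.58 CPM (SD, n = 5) and 24.8 ± 6.84 CPM (n = 8), a difference of -44.3%. Slc5a7 had 20.1, 25.9, 30.9, 31.5 and 32.6 CPM in SCA3 and 31.9 to 68.2 CPM in wild-type libraries (median 48.5), again with 4 SCA3 libraries below and 7 wild-type libraries above the other group's range, though the libraries inside it were not those of Chat (SCA3 mouse 7267056 and wild-type mouse 9083375, against 7267054 and 7267058 for Chat). Its means were 28.2 ± 5.22 CPM and 46.5 ± 12.5 CPM, a difference of -39.3%.

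The test of this difference depended on which libraries set the spread. In the fit of all 53 libraries, where each gene has a single dispersion, Chat had a log2 fold change of -0.84 (SE 0.85, FDR 0.591) and Slc5a7 of -0.72 (SE 0.79, FDR 0.622), and neither passed. The dispersion was 1.07 for Chat and 0.917 for Slc5a7 there, and 0.0554 and 0.0535 when the striatal libraries were fitted alone. In wild-type mice the coefficient of variation of Chat was 27.5% in striatum, against 79.97% for brainstem, 67.8% for cortex and 143% for cerebellum. In the striatal libraries alone both genes fell, Chat by 0.84 (SE 0.20, FDR 0.0107) and Slc5a7 by 0.72 (SE 0.19, FDR 0.0371) on the log2 scale, and they were the 2 members called, where 0.711% of all genes were. The quasi-likelihood F test on the same libraries called 0 members and 0.0485% of all genes (Chat FDR 0.159, Slc5a7 FDR 0.213). At an unadjusted p below 0.05 it had 6 members, against 1861 of the 12372 genes.

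Leaving the 2 striatal libraries high in thalamic markers out of the striatal fit gave log2 fold changes of -0.96 (SE 0.18, FDR 0.0003) for Chat and -0.84 (SE 0.18, FDR 0.0018) for Slc5a7, the 2 members called (0.873% of all genes). Chat was then 18.0 CPM or more in the 6 remaining wild-type libraries, against a highest SCA3 value of 16.9 CPM. Wild-type mouse 7267058, whose library had lain within the SCA3 range at 16.5 CPM, was among those left out. The share of all genes that separate in these libraries was not counted. When the score of the thalamic markers entered the model, the changes were -0.98 and -0.82 (FDR 1.1e-05 and 0.0012, 2 members, 1.25% of all genes). With the projection neuron score they were -1.12 and -0.95 (FDR 9.9e-10 and 3.3e-05, 2 members, 0.259%). Without each mouse in turn Chat passed in 11 of 13 striatal fits and Slc5a7 in 6 of 13. The call of Chat was lost without SCA3 mouse 9083514 or 9083515, the latter giving its highest FDR, 0.0837. That of Slc5a7 was also lost without SCA3 mouse 7267054 or 7267056 or wild-type mouse 7267055, 9083372 or 9083373 (highest FDR 0.243). The mouse numbers fall into 3 series by their leading digits, whose meaning the labels do not give. Within them the striatal differences of mean log2 CPM were -0.28 (2 SCA3 and 3 wild-type mice), -1.55 (1 and 1) and -1.05 (2 and 4) for Chat, and -0.30, -1.11 and -0.98 for Slc5a7. The largest series alone called neither gene, but that fit took its libraries of all regions with 1 dispersion per gene. It is thus no check of the striatal fits.

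**Figure D3:**
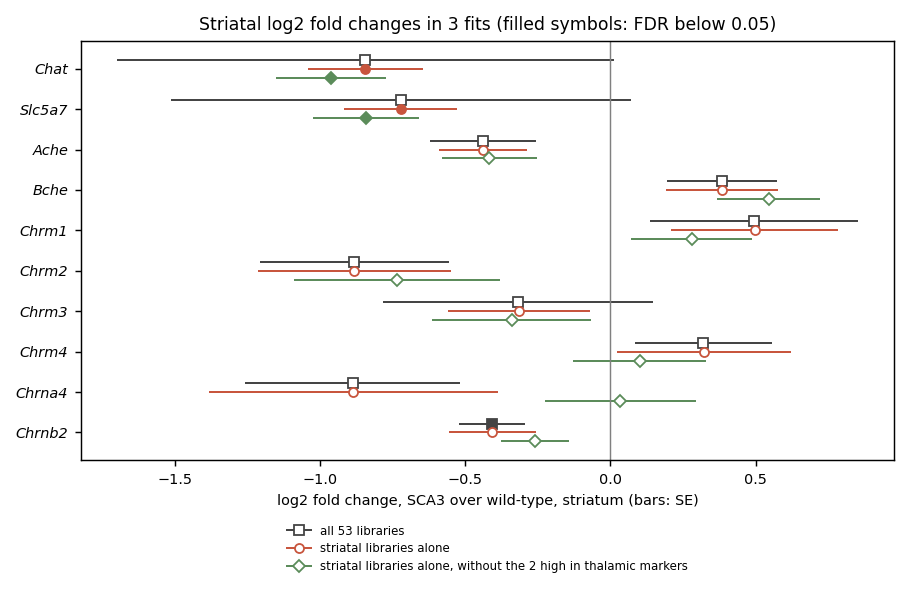
Striatal log2 fold changes (SCA3 over wild-type) of the 10 genes with SE bars, in the fit of all libraries (squares), of striatal libraries alone (circles) and of these without the 2 libraries high in thalamic markers (diamonds), with filled symbols where the FDR was below 0.05. The values of Chat and Slc5a7 change little between fits while their SE bars shorten, and Chrna4 moves from -0.89 to 0.03.

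Chrnb2 was the member called in the fit of all libraries. It had 56.8, 57.6, 59.6, 62.8 and 65.2 CPM in SCA3 striatum, and 58.4 to 110 CPM in wild-type striatum (median 78.8, n = 8). The highest wild-type values, 110 and 96.5 CPM, came from the 2 libraries high in thalamic markers. The log2 fold change was -0.41 (SE 0.11, FDR 0.0102, lower than the wild-type median in 5 of 5 libraries). Without those libraries it was -0.26 (SE 0.10, FDR 0.186), and 0 members were called, against 2.34% of all genes. At an unadjusted p below 0.05 that fit had 4 members, against 1797 of the 12372 genes. The change of Chrnb2 was -0.41 (FDR 0.181) in the striatal libraries alone and -0.12 (SE 0.08, FDR 0.999) there with the projection neuron score. The call was also lost without SCA3 mouse 7267054 or 7267056 and with libraries of RIN at least 7. Within the 3 mouse series the differences were -0.72, 0.032 and -0.23. Chrna4, its partner, had 13.2, 14.6, 18.4, 30.5 and 30.9 CPM in SCA3 striatum, within the range of the wild-type libraries apart from the 2 lowest. Its log2 fold change of -0.89 (SE 0.37, FDR 0.127) became 0.03 (SE 0.31, FDR 0.979) without the 2 thalamic libraries.

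**Figure D4:**
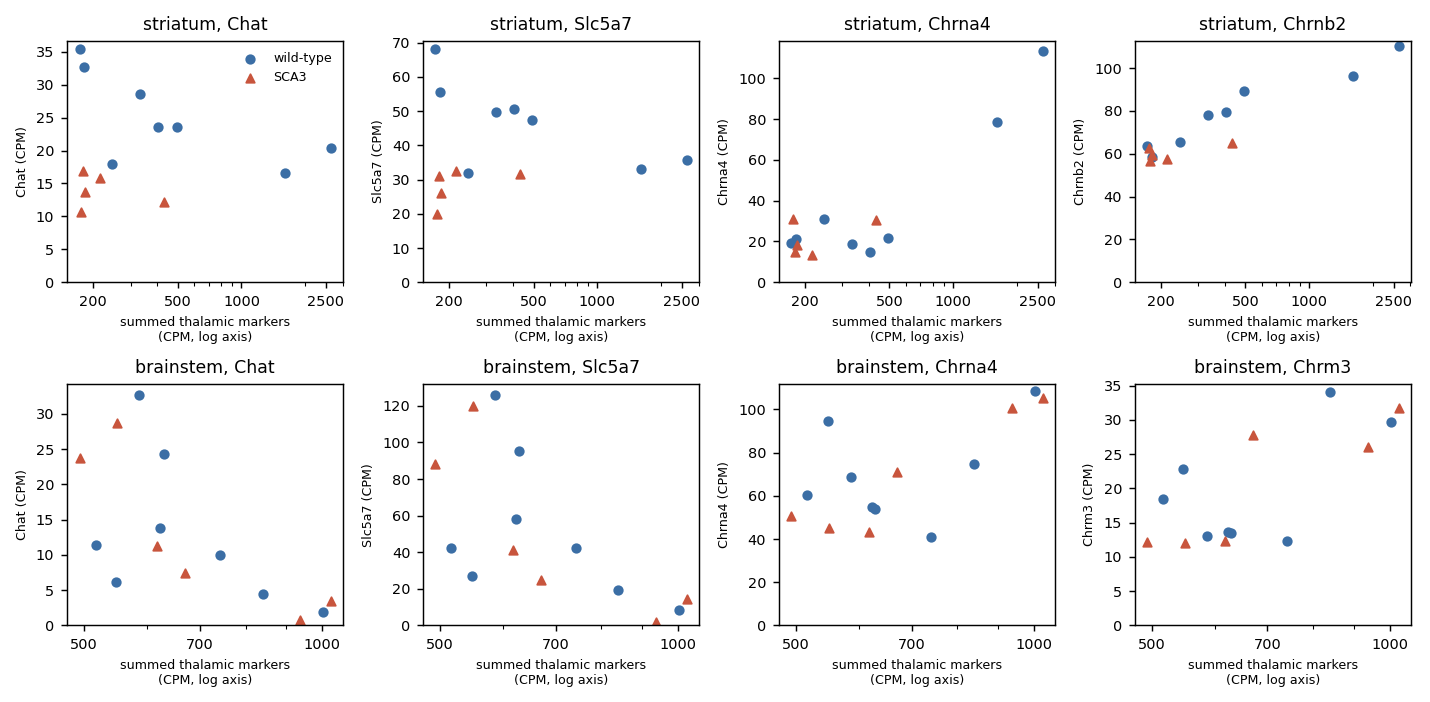
CPM of 4 genes in striatum (top) and brainstem (bottom) against the summed CPM of 10 thalamic markers (log axis), with circles for wild-type and triangles for SCA3. In striatum Chrna4 and Chrnb2 are highest in the 2 wild-type libraries with sums above 1000 CPM, and among the others, at 494 CPM or less, SCA3 libraries lie lowest for Chat. In brainstem Chat and Slc5a7 are lowest in the 4 libraries with the highest sums.

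The other members did not pass in striatum in the fit of all libraries or in the striatal libraries alone. Ache had 60.04, 60.5, 66.8, 68.1 and 72.6 CPM in SCA3 libraries and 64.6 to 119 CPM in wild-type libraries (median 85.2), a log2 fold change of -0.44 (SE 0.18, FDR 0.107), with 5 of 5 SCA3 libraries below the wild-type median. Ache passed in 2 of 13 striatal fits that left out a mouse, those without wild-type mouse 9082857 or 9083371 (lowest FDR 0.0476). Without the 2 thalamic libraries its change was -0.42 (SE 0.19, FDR 0.270) in the fit of all libraries. Bche had 9.22, 11.7, 11.8, 12.4 and 15.6 CPM against 6.71 to 12.3 CPM (median 9.16), a change of 0.39 (SE 0.19, FDR 0.184), with 5 of 5 above it. The 2 highest wild-type values of Bche, 12.3 and 12.2 CPM, were those of the 2 thalamic libraries. Without them the change was 0.54 (SE 0.19, FDR 0.107), and with the thalamic score in the striatal libraries alone it was 0.54 (FDR 0.0554). Neither enzyme passed, and the difference between them was not tested. Per length, Ache over Bche was 8.02 ± 1.09 in SCA3 striatum (SD, n = 5, range 6.81 to 9.50) and 15.04 ± 6.19 in wild-type striatum (n = 8, range 8.76 to 24.2), ranges that overlapped. In cortex Bche had the smallest FDR of the members, with 6.99 to 15.1 CPM in SCA3 (median 11.04, n = 6) and 5.54 to 10.9 CPM in wild-type libraries (median 8.22, n = 7), which overlapped (log2 fold change 0.47, SE 0.18, FDR 0.773).

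Among the striatal receptors, Chrm2 had 3.54, 3.97, 4.04, 6.02 and 10.3 CPM in SCA3 and 4.39 to 14.99 CPM in wild-type libraries (median 10.95). Its log2 fold change was -0.88 (SE 0.32, FDR 0.0734), and it passed when the mouse series was a covariate and without SCA3 mouse 9082853 or wild-type mouse 9082857, 9083371 or 9083375. In the striatal libraries alone it did not pass with the thalamic score (-0.65, FDR 0.344) or with the projection neuron score (-0.32, FDR 0.999), and without the 2 thalamic libraries it was -0.74 (FDR 0.289 in the fit of all libraries). Within the 3 mouse series the differences of Chrm2 were -1.70, 0.75 and -0.85, so the sign turned in the series with 1 mouse of each genotype. Chrm1 had 125 to 183 CPM in SCA3 (5 libraries) and 45.6 to 174 CPM in wild-type libraries, a change of 0.49 (SE 0.36, FDR 0.400), and Chrm4 56.7 to 98.5 CPM and 26.5 to 115 CPM, a change of 0.32 (SE 0.23, FDR 0.405). The lowest values of both were those of the 2 libraries high in thalamic markers, and without these the changes were 0.28 (SE 0.36, FDR 0.790) and 0.10 (SE 0.22, FDR 0.882). The projection neuron markers moved with them: 12 of 12 had a positive log2 fold change (0 called, median 0.50), and their sum was 7062 to 10579 CPM in SCA3 and 2751 to 11391 CPM in wild-type striatum. Of the thalamic markers 10 of 10 had a negative value and 6 were called (median -1.49), with sums of 176 to 433 CPM in SCA3 and 173 to 2637 CPM in wild-type libraries. Oligodendrocyte markers were also lower in 11 of 11 (5 called, sums of 6346 to 9680 CPM in SCA3 and 6890 to 20075 CPM in wild-type) and astrocyte markers in 8 of 8 (3 called, 3972 to 4432 CPM and 3824 to 5509 CPM). The part of these cell types in the members' differences was not tested beyond the fits given. Chrm3 had 8.76 to 24.1 CPM in SCA3 and 11.7 to 25.2 CPM in wild-type striatum (log2 fold change -0.32, SE 0.46, FDR 0.720). With the projection neuron score in the striatal libraries alone, the changes of Ache, Chrm1 and Chrm3 were -0.28, 0.06 and -0.09, and that of Chrm4 turned to -0.18 (FDR 0.999 each).

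In brainstem the genotypes overlapped for every member. Chat ran from 0.75 to 28.7 CPM in SCA3 (median 9.34, n = 6) and from 1.97 to 32.6 CPM in wild-type libraries (median 10.8, n = 8), and its log2 fold change was -0.06 (SE 0.81, FDR 0.988). Its sign was not stable: leaving SCA3 mouse 9082853 out of the brainstem libraries alone gave -0.49, and leaving out wild-type mouse 9082857 gave 0.28. Chrm2 was the member farthest from 0 in proportion to its error, with 12.6 to 27.2 CPM in SCA3 (median 20.2) and 20.9 to 33.7 CPM in wild-type libraries (median 26.8), a change of -0.38 (SE 0.30, FDR 0.634). Ache had 151 to 190 CPM in SCA3 (median 176) and 134 to 190 CPM in wild-type libraries (median 165), a change of 0.10 (SE 0.17, FDR 0.860). Brainstem RIN was higher in SCA3 (median 7.9 against 7.3). In the brainstem libraries alone 0 members passed, against 3.17% of all genes, as in those of cerebellum (0.17%) and cortex (0.283%). At an unadjusted p below 0.05 these fits had 1, 0 and 1 members, against 1970, 444 and 367 of the 12372 genes.

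In cerebellum the values of 9 members were negative, from -1.16 for Slc5a7 (SE 0.77, FDR 1.00) to -0.028 for Chrm4 (SE 0.24, FDR 1.00), and Bche had 0.00098 (SE 0.18). Slc5a7 ran from 0.0925 to 6.53 CPM in SCA3 (median 0.66, n = 6) and from 0.111 to 17.4 CPM in wild-type cerebellum (median 2.18, n = 7). Chat and Slc5a7 were both highest there in wild-type mouse 9083373, at 4.67 and 17.4 CPM. Without this library the cerebellar changes of Chat and Slc5a7 were -0.08 and -0.14 in the cerebellar libraries alone, and without SCA3 mouse 7267054 they were -1.98 and -2.10. In cortex, Chat ran from 1.06 to 15.1 CPM in SCA3 (median 7.61, n = 6) and 1.24 to 23.8 CPM in wild-type libraries (median 11.5, n = 7), a change of -0.73 (SE 0.83, FDR 1.00), and Chrnb2 from 61.4 to 79.2 CPM and 69.8 to 85.8 CPM, a change of -0.13 (SE 0.11, FDR 1.00). The genotypes overlapped for these genes in both regions.

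Other genes of the pathway were taken from a list of 59, of which 33 were in the table. Other markers of cholinergic neurons, the remaining receptor subunits, chaperones of nicotinic receptors, cholinesterase anchors, choline supply and muscarinic signalling made up the list. In brainstem, cerebellum and cortex 0 of 33 were called, and in striatum 3 were (7.54% of all genes were called there, near the share of the list), all lower in SCA3. The median striatal log2 fold change over the 33 genes was -0.095. Ngfr, the p75 neurotrophin receptor carried by basal forebrain cholinergic neurons, had 1.22 to 5.62 CPM in SCA3 striatum (5 libraries) and 4.30 to 23.9 CPM in wild-type striatum (8 libraries). Of the SCA3 libraries 4 lay below every wild-type library, and Ngfr fell by 2.55 on the log2 scale (SE 0.51, FDR 0.00099). It passed in the striatal libraries alone (FDR 0.0025) and there without the 2 thalamic libraries (-2.43, FDR 0.0037). In wild-type striatum Ngfr had 23.9 and 20.7 CPM at projection neuron sums of 2751 and 3826 CPM. At sums of 11391 and 11171 CPM it had 8.53 and 4.47 CPM. The order was not strict, with 8.58 CPM at a sum of 4136 CPM. The part of the dissection in the fall of Ngfr was not tested.

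Zic4, a zinc finger transcription factor, had 2.04 to 8.89 CPM in SCA3 and 1.64 to 48.8 CPM in wild-type striatum, a fall of 2.46 (SE 0.52, FDR 0.0018) that did not pass in the striatal libraries alone (FDR 0.0697). Plcb4, a phospholipase C that acts downstream of muscarinic receptors, had 25.98 to 61.9 CPM in SCA3 and 27.0 to 249 CPM in wild-type striatum. It fell by 1.327 (SE 0.31, FDR 0.0039), but its highest values, 249 and 160 CPM, were those of the 2 thalamic libraries, and without them the change was -0.58 (FDR 0.247).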

How the data were processed

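Poly-A RNA of 53 brain samples was sequenced by the authors, whose processing notes name bcl2fastq 1.8, FastQC 0.11.2, cutadapt 1.10, STAR 2.3.0e, HTSeq 0.6.1 and edgeR 3.14.0. Reads were aligned to GRCm38 and counted per RefSeq gene without strand. The values deposited by the authors are raw counts per gene, filtered to genes averaging above 4 CPM, with 1 column per library. Slc18a3 and most nicotinic subunits were not analysed here.

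Following the published methods, 1 model of 8 groups held all 53 libraries, fitted with edgeR 4.0.16 (R 4.3.3, TMM, likelihood ratio test), with Benjamini-Hochberg adjustment over 12372 genes and a threshold of 0.05 (false discovery rate, FDR). The code was tested on simulated data. CPM used TMM totals, with a prior count of 2 for logs. Lengths are exon unions of GENCODE vM21. Alternatives used DESeq2 1.42.0, limma-voom 3.58.1, other scalings, filters and covariates, a region's libraries alone, and leaving out each mouse.

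All 10 members were named, together with pathway genes called in a region (at most 5 each) and the 5 genes most like Chat over all libraries and in striatum. Members and lists were chosen with earlier results of these data known. Mice pair libraries across regions (mean r 0.0904 to 0.186 between regions of a mouse, 12 or 13 mice a pair), not genotypes. P-values measure the spread between libraries of a group, which holds differences of dissection as well as of mouse. In the fit of all libraries the dispersion of a gene was shared by all regions, and the model held no term for the mouse. Its p-values for a region thus also reflect the spread in the other regions, and its comparisons between regions leave out the pairing by mouse.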

Additional observations from a re-analysis of the deposited data

Results flagged for a closer look

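In 80 groups of libraries (10 genes, 4 regions and 2 genotypes), 2 held a library set far apart from its group by Dixon's criterion, and chance flags about 1 group in 20. Both were wild-type cerebellum and the same mouse, 9083373. Its Chat level was 4.67 CPM, next to 1.66 CPM in the second highest of 7 libraries, and its Slc5a7 level was 17.4 CPM, next to 4.99 CPM. Both genotypes had cerebellar libraries with no Chat count or nearly none.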

How the results depend on the processing

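The counts of members called in brainstem, cerebellum and cortex and for region dependence were 0 under every alternative run, and those of 5 of the 6 comparisons between wild-type regions stayed within 1.5 times of the reported count. In striatum, 1 member was called in the fit of all libraries. The count was 2 with a covariate for the mouse number series, in the striatal libraries alone, and there with the thalamic score, with the projection neuron score or without the 2 libraries high in thalamic markers. It was 0 with libraries of RIN at least 7, with the largest mouse series alone, in the fit of all libraries without the 2 thalamic libraries, and in the quasi-likelihood F test of the striatal libraries alone. Without each mouse it ran from 0 to 2 in the fit of all libraries and from 0 to 5 in the striatal libraries alone, 5 (Chat, Slc5a7, Ache, Chrm2 and Chrnb2) being without wild-type mouse 9083371. In the combined test it was 0 and ran from 0 to 2 without each mouse (2 without wild-type mouse 9083371). Between wild-type cortex and striatum it was 1, and it was 2 in limma-voom both without a block and with the mouse as a replicate block, 0 with RIN as a covariate, 3 without the 2 thalamic libraries, and 0 to 2 without each mouse. Against the same fit without it, the mouse block changed no call of a member, and its correlation within a mouse was 0.14. Both limma-voom fits called 9 members between brainstem and cerebellum and 8 between cerebellum and cortex. The difference of Chrna4 between wild-type cortex and striatum turned from -0.19 to 0.73 without the thalamic libraries. The causes were not tested beyond these fits. The fits without the thalamic libraries, those of a region alone without each mouse and those of a region alone with the quasi-likelihood F test were chosen after seeing the data. Depth limits Chat in cerebellum, where libraries without a count allow 0.0554 to 0.0766 CPM.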
